A study of Homo sapiens with 8 samples.

Results

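The genes described here encode mitochondrial ribosomal proteins: the 78 of 15852 rows in the deposited gene table whose symbol begins with MRPL or MRPS and a digit, 49 of the first kind and 29 of the second. They were measured by RNA sequencing of KYSE150, an established cell line of esophageal squamous cell carcinoma. There were 4 libraries of control cells and 4 of cells with BOLA3-L knocked down, all from this single line. The labels name the genotypes Control and ShBOLA3-L and list no other treatment in either group. The number of hairpins, the control construct and whether the libraries of a group came from separate cultures are not stated, so the p-values below measure the spread between libraries, which may be technical. The study's title concerns inclusion of exon 3 of BOLA3, a mitochondrial protein that helps deliver iron-sulfur clusters, and BOLA3-L is one isoform of it. The question taken up here is whether the transcripts of large and small subunit proteins differed between the groups.

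Mitochondria carry their own ribosome, which translates the few proteins encoded by mitochondrial DNA, all of them core parts of the oxidative phosphorylation complexes or the ATP synthase. Its RNA is made in the organelle, but every protein in it is encoded in the nucleus, made in the cytosol and imported. MRPL symbols stand for the large subunit, which joins amino acids, and MRPS symbols for the small subunit, which reads the mRNA. Some of these proteins have a counterpart in the bacterial ribosome, and the others arose in the mitochondrial line.

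The targeted gene was examined first. Levels are given as CPM, counts scaled to library totals adjusted by TMM, always in the order of replicates 1 to 4. BOLA3 had 21.6, 19.1, 20.5 and 21.8 CPM in the controls, and after knockdown it had 6.05, 6.63, 6.33 and 7.29 CPM. The knockdown libraries were all lower, with a mean of 6.58 ± 0.531 CPM against 20.8 ± 1.26 CPM (SD, n = 4 each), a log2 difference of -1.66 (SE 0.0821, edgeR adjusted p = 6.89e-11). The two-sided exact permutation p was 0.0286, which is as low as 4 libraries against 4 can reach. The counts are per gene and do not separate the long isoform from others.

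Libraries held between 31178036 and 35147860 counts, so a gene with 3 counts has 0.0854 to 0.0962 CPM. This floor covers counting error only, while the SEs and intervals of log2 differences below come from the edgeR fit and include the spread between libraries. The 7 squamous epithelial markers checked had medians from 4.92 CPM (KRT6A) to 2569 CPM (KRT5). Of 11 markers of other cell types, 9 had a median of at most 1.36 CPM, the exceptions being CD68 at 78.4 CPM and COL1A1 at 7.62 CPM. Knockdown replicate 1 stood apart from the other knockdown libraries on the second principal component (20.1 against -10.1 to -4.81). Its deviations from the mean followed GC content across genes (r = -0.46, against -0.062 to 0.262 in the other 7 libraries), so the counts of called genes by family, class and list are also given without it.

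The promoters of 4 members are shown because these genes include 2 that were lower and 2 that were higher after knockdown and carry the sequence word most common in the family. Each line gives the RefSeq sequence (GRCh38.p14) from 250 bases before to 50 bases after the annotated start, 5′ to 3′ on the gene's strand. Capitals mark matches to CCGGAA, the core bound by ETS factors, or to GCATGCG, a core part of the site of the factor NRF1, on either strand.
MRPL40, chr22:19432295-19432594, plus strand: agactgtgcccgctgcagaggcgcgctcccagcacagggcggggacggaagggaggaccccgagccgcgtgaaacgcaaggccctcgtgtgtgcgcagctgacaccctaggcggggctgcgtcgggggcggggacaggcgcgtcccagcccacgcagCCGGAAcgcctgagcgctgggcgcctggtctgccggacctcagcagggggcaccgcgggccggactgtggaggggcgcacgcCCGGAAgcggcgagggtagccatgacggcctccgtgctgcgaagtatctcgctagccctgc
MRPL17, chr11:6683291-6683590, minus strand: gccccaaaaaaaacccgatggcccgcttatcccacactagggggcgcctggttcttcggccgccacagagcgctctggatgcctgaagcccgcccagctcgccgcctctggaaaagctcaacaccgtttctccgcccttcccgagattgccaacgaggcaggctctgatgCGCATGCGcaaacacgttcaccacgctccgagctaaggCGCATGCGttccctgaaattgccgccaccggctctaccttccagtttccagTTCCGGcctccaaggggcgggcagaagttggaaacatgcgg
MRPL16, chr11:59810729-59811028, minus strand: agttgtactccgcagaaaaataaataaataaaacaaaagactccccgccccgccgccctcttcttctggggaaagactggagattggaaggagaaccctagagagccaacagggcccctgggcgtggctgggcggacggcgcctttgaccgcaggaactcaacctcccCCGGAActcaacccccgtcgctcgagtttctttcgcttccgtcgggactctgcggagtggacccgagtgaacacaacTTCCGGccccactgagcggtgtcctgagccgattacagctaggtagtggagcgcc
MRPS16, chr10:73252595-73252894, minus strand: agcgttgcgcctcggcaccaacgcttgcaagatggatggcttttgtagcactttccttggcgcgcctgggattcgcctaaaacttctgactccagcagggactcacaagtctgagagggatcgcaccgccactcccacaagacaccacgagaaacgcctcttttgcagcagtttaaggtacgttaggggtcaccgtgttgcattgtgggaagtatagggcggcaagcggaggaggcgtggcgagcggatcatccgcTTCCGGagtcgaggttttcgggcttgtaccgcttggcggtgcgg
The CCGGAA core occurred once or more in each of the 4, because they were chosen to carry it. MRPL17 alone among the 4 held GCATGCG, at 2 places where the word overlaps its own reverse complement. MRPS7 and MRPS2, which were also lower after knockdown, have no CCGGAA in this window. A link between the word and the change was not tested.

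**Figure D1:**
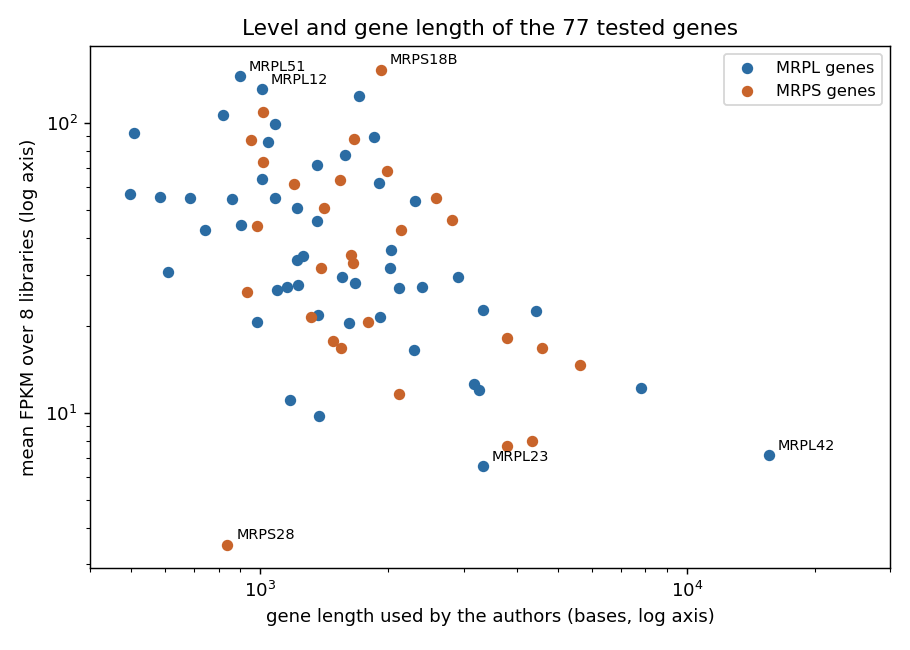
Each point is 1 of the 77 tested genes, with its mean FPKM over the 8 libraries (log axis) against the gene length the authors' FPKM implies (bases, log axis), MRPL genes in blue and MRPS genes in orange. MRPS18B is at the top and MRPS28 at the bottom, and MRPL42 stands apart with a length of 15560 bases.

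All members but 1 passed the filter on low counts. The median member had 33.3 FPKM (counts scaled to gene length and library total, the authors' deposited values, averaged over the 8 libraries), with quartiles of 20.6 and 60.6 FPKM. The medians of the MRPL genes (33.8 FPKM) and of the MRPS genes (32.8 FPKM) lay close together. MRPS18B, a small subunit protein of the S18 family, was at the top with 148 ± 6.44 FPKM in control and 159 ± 5.20 FPKM in knockdown libraries (SD, n = 4). MRPL51 followed with 143 ± 5.49 and 148 ± 12.2 FPKM, and MRPL12, a protein of the large subunit stalk that recruits translation factors, with 129 ± 4.41 and 133 ± 16.0 FPKM. MRPS18B and MRPL51 did not differ beyond their spread in the controls, while MRPL12 lay below MRPL51 in the controls and within the spread after knockdown. MRPL12 is uncertain, since 64.1% of the 75-base windows of its transcript also occur in another annotated gene.

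At the low end stood MRPL23 with 6.69 ± 0.594 FPKM in control and 6.40 ± 0.358 FPKM in knockdown libraries, MRPS28 with 3.66 ± 0.493 and 3.36 ± 0.923 FPKM, and MRPS24. MRPS28 is uncertain, since 40.6% of the windows of its transcript also occur in another annotated gene. MRPS24 was barely counted, with 1, 1, 0 and 0 counts in the controls against 2, 2, 1 and 5 counts after knockdown. It was the member that the filter removed, and 77.8% of its windows are shared with the readthrough gene URGCP-MRPS24, so its count says little about the gene. The order also depends on the length used by the authors. MRPL42 had 112 CPM but 7.14 FPKM because its FPKM implies 15560 bases.

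Of the 77 members tested, 5 were higher and 10 were lower in the knockdown libraries, and 62 did not pass the test (edgeR quasi-likelihood test, Benjamini-Hochberg adjusted over all 11841 genes tested, threshold 0.05). That is 19.5% of the members, beside 30.7% of all tested genes, of which 1777 were higher and 1853 lower. At an unadjusted p under 0.05, 22 of the 77 members differed, beside 4831 of all 11841 tested genes. The median member differed by -0.01 on the log2 scale (quartiles -0.09 to 0.06, range -0.32 to 0.19), and the median over all tested genes was 0.00. The median size of the difference, taken without its sign, was 0.0753 for the members and 0.113 for all tested genes. In bulk RNA, less RNA per cell and fewer cells that express a gene cannot be told apart.

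The estimated changes were small. In the fit to all libraries, the 15 members that passed the test differed by 0.11 to 0.32 on the log2 scale. Of these estimates, 0 went beyond 1.25-fold (0.322 on the log2 scale), but some of their 95% intervals did. These were the intervals of MRPS7 (-0.41 to -0.22), MRPL41 (-0.44 to -0.14), MRPL40 (-0.41 to -0.17) and MRPS2 (-0.36 to -0.15). For 61 of the 62 that did not pass, the 95% interval of the difference lay within 1.25-fold in either direction. The exception was MRPS28, whose interval ran from -0.53 to 0.25. The members' share of all counts was 0.545%, 0.527%, 0.528% and 0.526% in the controls, against 0.524%, 0.541%, 0.528% and 0.540% after knockdown. The groups overlapped in this share, with means of 0.531 ± 0.00922% and 0.533 ± 0.00843%.

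**Figure D2:**
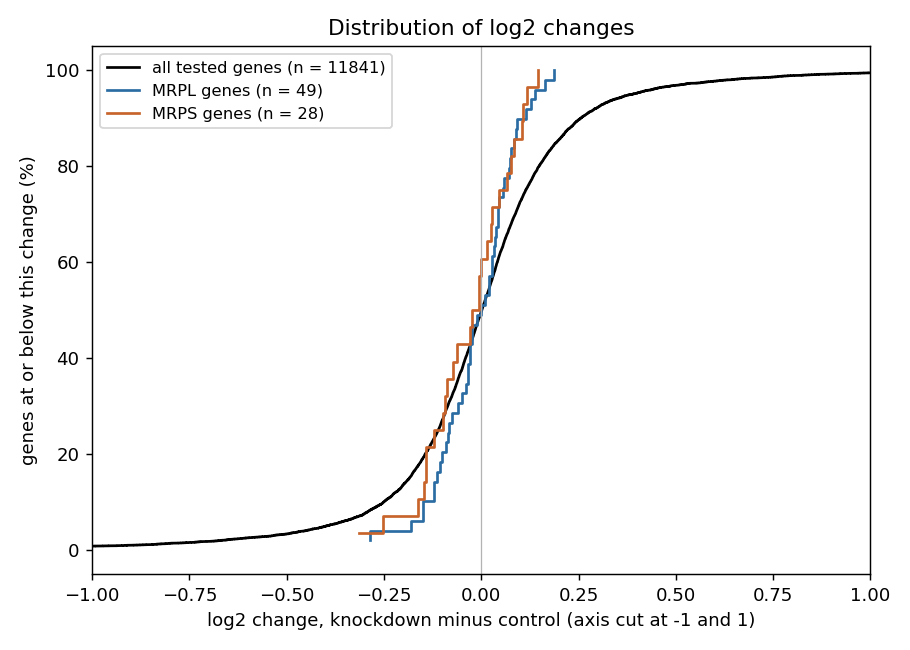
Cumulative share of genes (percent) at or below each log2 difference, knockdown minus control, for the 49 MRPL genes (blue), the 28 MRPS genes (orange) and all 11841 tested genes (black), with the axis cut at -1 and 1. The members lie between -0.32 and 0.19, with a median of -0.01.

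Without knockdown replicate 1, 11 members were higher and 13 were lower (31.2%, beside 42.7% of all tested genes). The 15 calls made with all libraries were also made there, and 67 of 77 members kept their direction. The 9 added calls were MRPL11, MRPL12, MRPL22, MRPL37, MRPL42, MRPL51, MRPS18B, MRPS26 and MRPS30. After a correction for GC content added after seeing the data, 10 were higher and 17 were lower (35.1%, beside 41.9%), again with the same 15 among them. With both changes together, 10 were higher and 16 were lower, beside 42.2% of all tested genes, and MRPL38 no longer passed. Median GC content was 50.7% in the members called higher, 52.9% in those called lower and 48.8% over all tested genes.

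The 10 decreases and 5 increases did not hold equally when single libraries were left out. Of the 10 decreases, 6 passed the test in each of the 8 fits that left out 1 library: MRPS7, MRPS2, MRPL40, MRPL17, MRPL41 and MRPS15. Of the 5 increases, 0 did. The same shares were not computed over all called genes, so this contrast cannot be read as a trait of the family. Without knockdown replicate 2, edgeR called 0 members higher and 9 lower (25.1% of all tested genes were called). In that fit 6 members were higher at an unadjusted p under 0.05, a count not made for all genes. The edgeR test called 2 higher and 6 lower without knockdown replicate 3 (25.9% of all). Without knockdown replicate 4 it called 3 higher and 9 lower (27.7% of all). It called 4 higher and 6 lower without control replicate 1 (24.6% of all). Without control replicate 2 it called 1 higher and 7 lower (23.9% of all), without control replicate 3 it called 1 higher and 9 lower (24.2% of all), and without control replicate 4 it called 1 higher and 7 lower (25.6% of all). DESeq2 on all libraries called the same 15 members, beside 23.6% of its 15848 genes. That is a larger set than the 11841 of edgeR, because no filter on low counts came first.

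**Figure D3:**
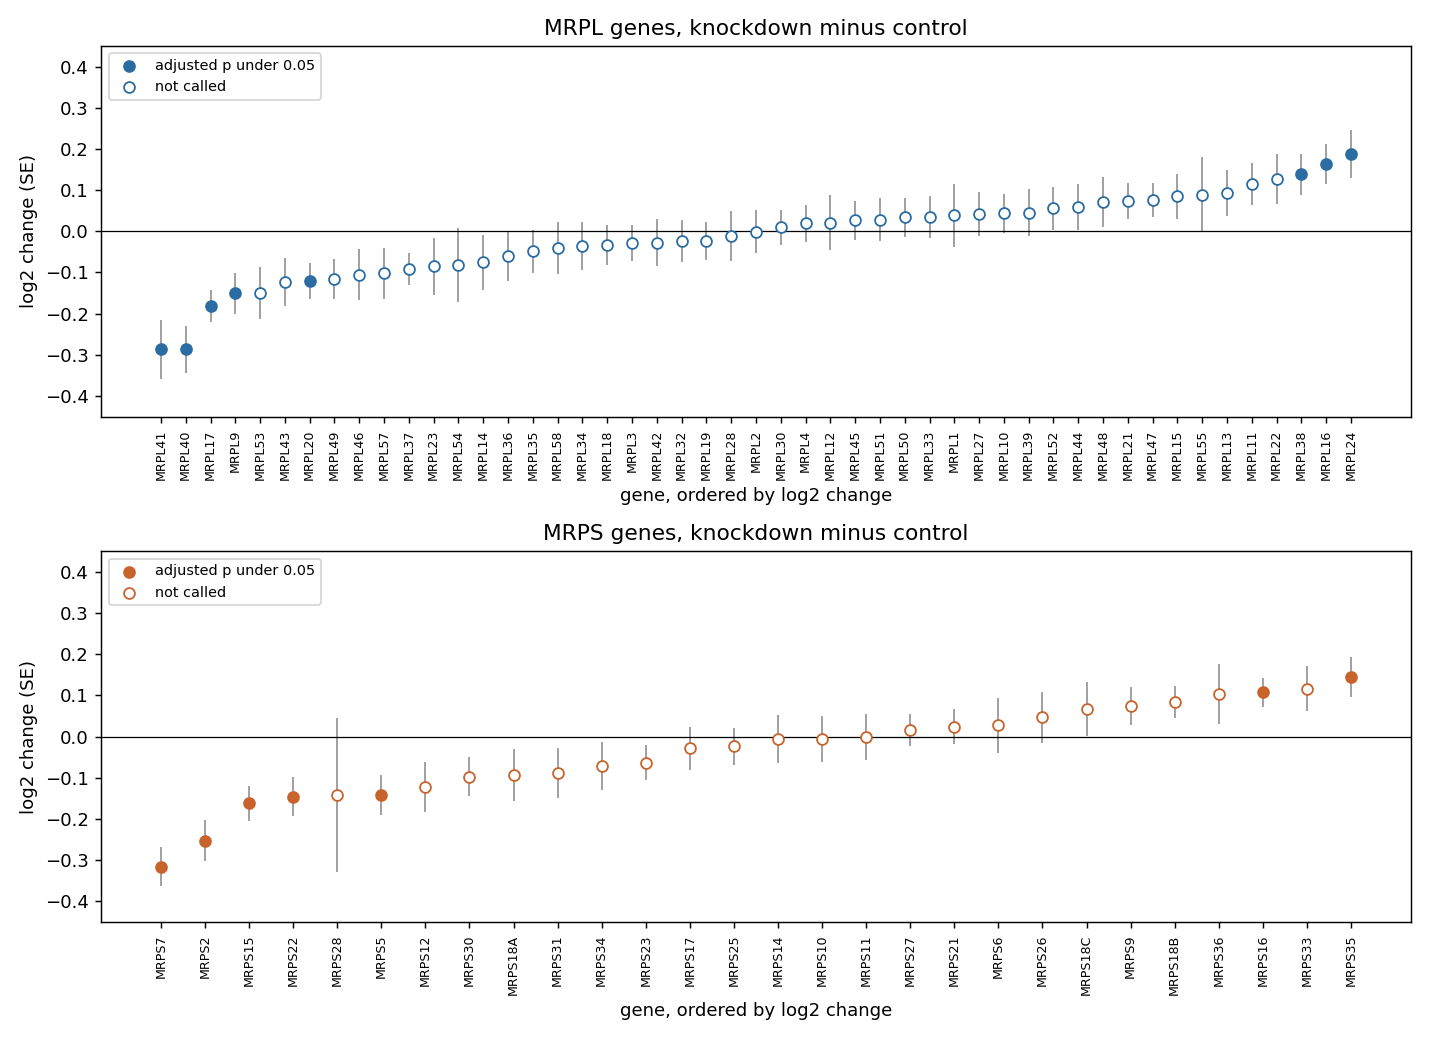
Log2 difference of each tested gene, knockdown minus control, with bars of 1 SE to either side, for MRPL genes (above) and MRPS genes (below), ordered by size, with filled points for an edgeR adjusted p under 0.05. The 15 called genes reach from -0.32 (MRPS7) to 0.19 (MRPL24), and most genes sit near 0 in both panels.

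Among small subunit proteins with a bacterial counterpart, 4 of 15 tested fell and 1 rose, which is 33.3% beside 30.7% of all tested genes, so the class was called about as often as genes at large. The counts were 1 higher and 4 lower without knockdown replicate 1 too (beside 42.7% of all). MRPS7 (Entrez 51081, chromosome 17, 75261879 to 75266376, GRCh38.p14) organises the head of the small subunit. It had 81.6, 82.7, 82.7 and 83.3 CPM in the controls, and after knockdown 62.3, 70.6, 63.7 and 68.9 CPM. Every knockdown library was below every control, and the log2 difference of -0.32 (SE 0.0469, edgeR adjusted p = 5.66e-05) was the most negative of the family. On the opposite strand, annotated genes overlap 10.8% of its exon bases, and whether the counting used strand is not stated. One of these, MIF4GD, rose by 0.36 on the log2 scale (edgeR adjusted p = 0.000304) and was named after its value was seen. The other, GGA3, differed by 0.01 and did not pass (edgeR adjusted p = 0.900).

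MRPS2 (Entrez 51116, chromosome 9, 135499965 to 135504673) stood at 155, 168, 161 and 152 CPM in the controls and at 119, 136, 137 and 141 CPM after knockdown. The groups did not overlap, and knockdown replicate 1 was the lowest library. The log2 difference was -0.25 (SE 0.0496, edgeR adjusted p = 0.00081), and -0.20 without that replicate (edgeR adjusted p = 1.37e-06). Opposite-strand genes overlap 14.4% of its exon bases.

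MRPS15 (Entrez 64960, chromosome 1, 36455718 to 36464384), which binds the small subunit's RNA, stood at 89.4, 89.1, 90.3 and 84.6 CPM in the controls and at 76.6, 80.8, 77.2 and 81.2 CPM after knockdown. These groups were also apart, by a log2 difference of -0.16 (SE 0.0423, edgeR adjusted p = 0.00694). MRPS5, which lies near the entrance for mRNA, had 72.2 ± 3.77 CPM in the controls and 65.4 ± 2.85 CPM after knockdown (log2 difference -0.14, edgeR adjusted p = 0.0356). Its groups were separate in CPM, but leaving out control replicate 1, 2 or 4 or knockdown replicate 3 ended the call, with edgeR adjusted p up to 0.146.

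MRPS16 (Entrez 51021, chromosome 10, 73248849 to 73252644) was the increase in this class, and its promoter is printed above. It stood at 136, 135, 138 and 138 CPM in the controls and at 150, 148, 147 and 144 CPM after knockdown. All knockdown libraries were higher, although the log2 difference was 0.11 (SE 0.0355, edgeR adjusted p = 0.0277). The call ended without any 1 of the 4 controls or of knockdown replicates 2 and 3 (edgeR adjusted p up to 0.0681). Opposite-strand genes overlap 14.1% of its exon bases, among them DNAJC9, which fell by 0.17 on the log2 scale (edgeR adjusted p = 0.00794) and was named after its value was seen.

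Among small subunit proteins without a bacterial counterpart, 1 of 9 tested rose and 1 fell (22.2%, beside 30.7% of all tested genes). Without knockdown replicate 1 there were 2 higher and 1 lower, beside 42.7% of all. MRPS35 had 135, 125, 125 and 130 CPM in the controls and 156, 146, 133 and 136 CPM after knockdown (log2 difference 0.14, SE 0.049, edgeR adjusted p = 0.0316). The groups overlapped, since knockdown replicate 3 lay below control replicate 1. Its call ended without control replicate 2, 3 or 4 or knockdown replicate 2 (edgeR adjusted p up to 0.104). MRPS22 had 78.5, 76.7, 69.4 and 76.5 CPM in the controls and 68.8, 70.3, 67.8 and 65.2 CPM after knockdown (log2 difference -0.15, SE 0.0475, edgeR adjusted p = 0.0256). The groups overlapped, since knockdown replicate 2 exceeded control replicate 3. Its call ended without control replicate 1, 2 or 4 or knockdown replicate 3 or 4 (edgeR adjusted p up to 0.0934).

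Among large subunit proteins with a bacterial counterpart, 3 of 30 tested fell and 2 rose (16.7%, beside 30.7% of all tested genes). Without knockdown replicate 1 there were 5 higher and 3 lower, beside 42.7% of all. MRPL17 (Entrez 63875, chromosome 11, 6680385 to 6683340), which sits around the exit of the tunnel for the new protein chain, stood at 138, 129, 129 and 133 CPM in the controls and at 115, 119, 114 and 119 CPM after knockdown. The groups were well apart, by a log2 difference of -0.18 (SE 0.0388, edgeR adjusted p = 0.0016). MRPL20, a protein that joins early in assembly, had 93.8 ± 2.57 CPM in the controls and 86.2 ± 3.74 CPM after knockdown (log2 difference -0.12, edgeR adjusted p = 0.0417). Its groups did not overlap, but 20.5% of its windows are shared with other genes. The call ended without control replicate 1, 2 or 4 or knockdown replicate 2 or 3 (edgeR adjusted p up to 0.117).

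MRPL9 had 65.6 ± 3.78 CPM in the controls and 59.1 ± 1.83 CPM after knockdown (log2 difference -0.15, edgeR adjusted p = 0.0259). Its groups overlapped, and opposite-strand genes overlap 33.2% of its exon bases. The call ended without control replicate 1 or 3 or knockdown replicate 3 (edgeR adjusted p up to 0.113).

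MRPL16 (Entrez 54948, chromosome 11, 59806140 to 59810778), which joins late in assembly close to where tRNA binds, stood at 56.5, 56.9, 55.9 and 56.9 CPM in the controls and at 58.7, 68.0, 62.8 and 64.1 CPM after knockdown. Every knockdown library was higher, with a log2 difference of 0.16 (SE 0.0488, edgeR adjusted p = 0.0154). The only library whose removal ended this call was knockdown replicate 2 (edgeR adjusted p = 0.0737). MRPL24 (Entrez 79590, chromosome 1, 156737303 to 156742716), a protein near the tunnel exit, stood at 107, 97.5, 98.0 and 99.6 CPM in the controls and at 97.8, 123, 118 and 119 CPM after knockdown. Knockdown replicate 1 lay among the controls and the other 3 above all of them. The log2 difference of 0.19 (SE 0.0588, edgeR adjusted p = 0.0207) became 0.26 without that replicate (edgeR adjusted p = 2.97e-08). Leaving out control replicate 2, 3 or 4 or knockdown replicate 2, 3 or 4 ended the call (edgeR adjusted p up to 0.0890).

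Among large subunit proteins without a bacterial counterpart, 2 of 20 tested fell and 1 rose (15%, beside 30.7% of all tested genes). Without knockdown replicate 1 there were 2 higher and 5 lower, beside 42.7% of all. MRPL40 (Entrez 64976, chromosome 22, 19432545 to 19436075) stood at 36.0, 36.7, 35.2 and 32.6 CPM in the controls and at 27.1, 29.5, 28.95 and 29.6 CPM after knockdown. The groups were separate, with a log2 difference of -0.29 (SE 0.0566, edgeR adjusted p = 0.000845). MRPL41 (Entrez 64975, chromosome 9, 137551879 to 137552555) stood at 32.4, 33.8, 37.7 and 38.0 CPM in the controls and at 25.7, 32.8, 29.3 and 28.6 CPM after knockdown. The groups met at their edges, where knockdown replicate 2 exceeded control replicate 1, and the log2 difference was -0.29 (SE 0.0721, edgeR adjusted p = 0.0054). Its transcript has 71.9% GC, and the difference was -0.23 without knockdown replicate 1 and -0.33 with the GC correction, past the threshold each time.

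MRPL38 had 59.2 ± 1.43 CPM in the controls and 65.2 ± 4.11 CPM after knockdown (log2 difference 0.14, edgeR adjusted p = 0.0419). It is uncertain because 65.8% of its windows are shared with another gene, and its call was lost without any 1 of the libraries other than knockdown replicate 1 (edgeR adjusted p up to 0.164). Near the threshold on the other side stood MRPL49 (log2 difference -0.11, edgeR adjusted p = 0.0827) and MRPL53 (-0.15, edgeR adjusted p = 0.0842). MRPL53 is uncertain too, since 47.7% of its windows are shared with another gene, CCDC142.

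**Figure D4:**
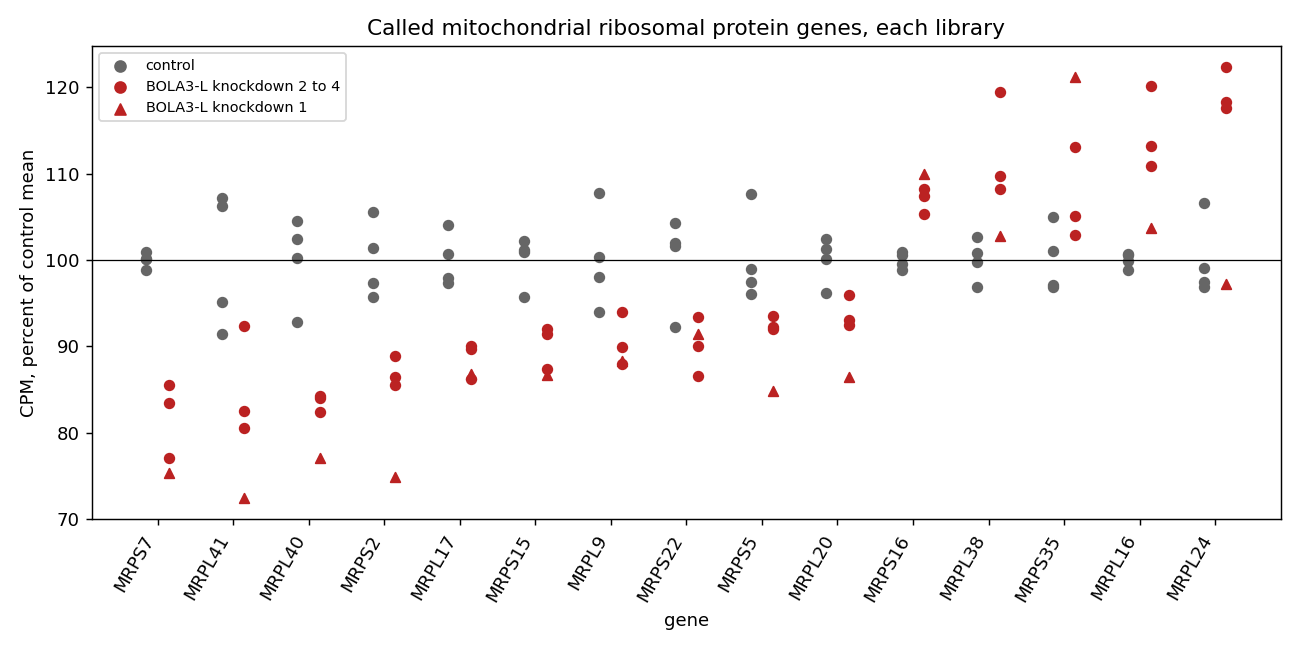
CPM of the 15 called genes in each library as percent of the gene's control mean (line at 100), with controls in grey, knockdown replicates 2 to 4 as red circles and knockdown replicate 1 as a red triangle. MRPS7, MRPS2, MRPL40 and MRPL17 show no overlap between groups, and MRPL24 has knockdown replicate 1 among the controls.

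In all, 4 members had every knockdown library above every control and 7 had every knockdown library below, which is 14.3% of the members beside 30.2% of all tested genes. With knockdown replicate 1 left out, 7 lay above and 10 below, 22.1% of the members beside 43.4% of all tested genes. Of the 15 called members, 10 were separated in this way and 5 overlapped: MRPL24, MRPL41, MRPL9, MRPS22 and MRPS35. MRPL13 was separated but did not pass the test.

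By symbol, the large subunit had 3 higher and 5 lower of 49 tested (16.3%) and a median log2 difference of -0.00. The small subunit had 2 higher and 5 lower of 28 tested (25%) and a median of -0.02. Of all tested genes 30.7% were called, so both shares lay below the background, and the difference between the subunits was not tested. Without knockdown replicate 1 the large subunit had 7 higher and 7 lower and the small subunit 4 higher and 6 lower, beside 42.7% of all. By place in the mitoribosome, where MRPS30 and MRPS18A belong to the large subunit and MRPS36 is not a ribosomal part but a component of the oxoglutarate dehydrogenase complex, the counts were 3 and 5 of 51 and 2 and 5 of 25. None of these reassigned genes passed the test. MRPS30 differed by -0.10 (edgeR adjusted p = 0.128), MRPS18A by -0.09 (edgeR adjusted p = 0.293) and MRPS36 by 0.10 (edgeR adjusted p = 0.302). The other S18 family members did not pass either, MRPS18B at 0.08 (edgeR adjusted p = 0.110) and MRPS18C at 0.07 (edgeR adjusted p = 0.480).

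Levels of the subunits were compared by the summed FPKM of their genes. The MRPL sum was 2267 ± 44.5 in control and 2281 ± 63.5 in knockdown libraries, and the MRPS sum was 1236 ± 14.5 and 1220 ± 29.9 (SD, n = 4). The libraries of the groups overlapped in both sums. The MRPS means lay further apart than the control SD but within the knockdown SD. The ratio of large to small ranged from 1.803 to 1.857 in the controls and from 1.857 to 1.884 in the knockdown libraries, a difference in means of 1.835 ± 0.0227 against 1.87 ± 0.0135. Each knockdown library lay above each control, though the nearest values touch at the printed precision. This ratio is a description of unequal sums, and it weighs highly expressed genes most.

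**Figure D5:**
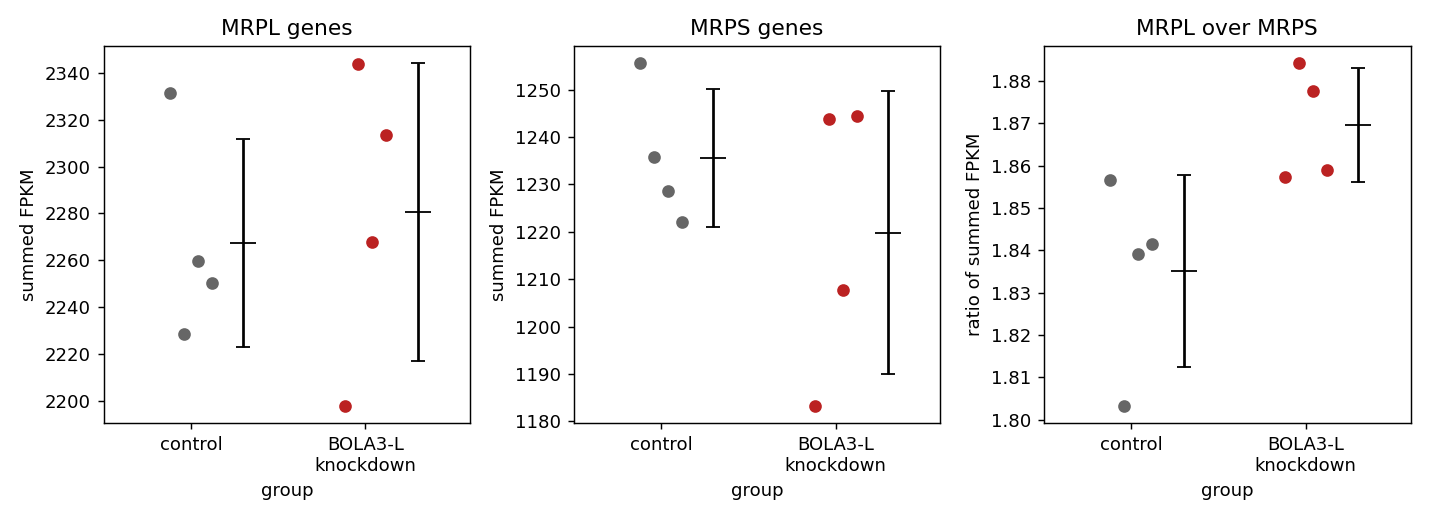
Summed FPKM of MRPL genes, of MRPS genes and their ratio, with 1 point for each control (grey) and knockdown (red) library, bars for the mean and SD of 4, and axes that do not start at 0. The sums of the 2 groups overlap, and the ratio runs from 1.803 to 1.857 in controls and from 1.857 to 1.884 after knockdown.

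In the RefSeq promoter windows, 70 of 78 members had an entry. The CCGGAA core was found in 40 of 70 (57.1%), on either strand, beside 30.9% of tested genes with an entry and 17.6% of all promoters of the table. It was in 25 of 42 large and 15 of 28 small subunit promoters. GCATGCG was in 7 (10%), beside 6.63% of tested genes and 4.13% of all promoters. GATGGCG, the core word of the factor YY1, was in 16 (22.9%), beside 7.88% and 4.35%. By call, CCGGAA was in 4 of 5 promoters of genes called higher, 5 of 10 of those called lower and 30 of 54 of those not called. GCATGCG was in 0 of 5, 2 of 10 (MRPS15 and MRPL17) and 5 of 54, and GATGGCG in 1 of 5 (MRPL38), 1 of 10 (MRPS2) and 13 of 54. These matches are descriptions of letters in the window.

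Several members share a start region with another gene. Of the 78, 29 have a protein-coding gene on the opposite strand whose start lies within 1000 bases, and 17 of them are arranged head to head, 6 to 965 bases apart. In the 13 such pairs with both genes tested, 0 of 14 members and 1 of 12 other genes passed the edgeR test, beside 30.7% of all tested genes. That gene is NDUFB5, a subunit of respiratory complex I that lies beside MRPL47, with 86.6 CPM in control and 98.0 CPM in knockdown libraries (log2 difference 0.18, edgeR adjusted p = 0.00568), named after its value was seen. MRPL46 and MRPS11, which are 34 bases apart, are both members, and neither passed the test. MRPL41, which was called lower, is also head to head with a gene, PNPLA7, 665 bases away. That pair is not among the 13 because PNPLA7 was not tested. In the other arrangement the genes overlap at their starts, and no share of calls was computed for it. There MRPS7, MRPL9 and MRPS22 were called lower, and the other members did not pass. Of their neighbours, MTBP rose (by MRPL13, 0.32, edgeR adjusted p = 0.00235). SARS2 (by MRPS12, -0.31, edgeR adjusted p = 0.00125) and TMEM63B (by MRPL14, -0.15, edgeR adjusted p = 0.0351) fell. The other tested neighbours did not pass.

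Other proteins of the mitochondrial ribosome carry other symbols. Of 5 such genes, 1 rose and 4 did not pass (20%, beside 30.7% of all tested genes). With knockdown replicate 1 left out, 2 were higher, beside 42.7% of all. The gene that rose was DAP3, a GTP-binding protein of the small subunit, which went from 136 ± 1.47 to 148 ± 5.26 CPM (log2 difference 0.12, edgeR adjusted p = 0.0175), a call that ended without control replicate 4 or knockdown replicate 2 (edgeR adjusted p up to 0.0774). Of 27 assembly factors, 4 rose and 2 fell (22.2%, beside 30.7% of all tested genes). Without knockdown replicate 1, 7 were higher and 3 lower, beside 42.7% of all. MTERF3 (log2 difference 0.30, edgeR adjusted p = 0.00118) and MALSU1 (0.19, edgeR adjusted p = 0.00721), both factors of large subunit assembly, rose in each fit that left out a library. NSUN4, which methylates ribosomal RNA, rose by 0.16 (edgeR adjusted p = 0.0277), and YBEY, an RNase, by 0.21 (edgeR adjusted p = 0.0358). MPV17L2 fell by 0.21 (edgeR adjusted p = 0.0171) and METTL15 by 0.19 (edgeR adjusted p = 0.0374). NSUN4, YBEY, MPV17L2 and METTL15 each lost the call in 3 to 7 of the 8 fits with a library left out.

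Of 17 mitochondrial translation factors, edgeR called 0 higher and 1 lower (5.88%, beside 30.7% of all tested genes), and without knockdown replicate 1 it called 2 higher and 2 lower (beside 42.7%). The gene that fell with all libraries was MTIF3, an initiation factor, with a log2 difference of -0.20 (edgeR adjusted p = 0.0318), a call lost in 6 of the 8 fits. The next smallest p-values belonged to MTRES1 (0.28, edgeR adjusted p = 0.0520), LRPPRC (0.09, edgeR adjusted p = 0.0783) and TUFM, the elongation factor that carries tRNA to the ribosome (0.08, edgeR adjusted p = 0.0988). Without knockdown replicate 1, MTRES1 (0.35, edgeR adjusted p = 0.00249) and TUFM (0.12, edgeR adjusted p = 6.41e-05) passed the test. Of 12 genes of mitochondrial transcription and RNA processing, 1 rose (8.33%, beside 30.7% of all tested genes): HSD17B10, a subunit of the mitochondrial RNase P, by 0.25 (edgeR adjusted p = 0.00039). There were 2 higher and 1 lower without knockdown replicate 1, beside 42.7% of all. Of 9 tested nuclear regulators of mitochondrial genes, 0 rose and 3 fell, which at 33.3% is close to the 30.7% of all tested genes. The counts without knockdown replicate 1 were 1 higher and 4 lower, beside 42.7%. YY1 went from 194 ± 3.45 to 172 ± 2.23 CPM (log2 difference -0.18, edgeR adjusted p = 0.000762), PPRC1 fell by 0.18 (edgeR adjusted p = 0.0019) and PPARGC1B by 0.25 (edgeR adjusted p = 0.00385), each in every fit with a library left out. MYC differed by -0.16 and did not pass (edgeR adjusted p = 0.0884).

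The cytosolic ribosome, built from another set of nuclear-encoded proteins, was set beside it. Of its 80 tested proteins, 23 were higher and 2 lower, which at 31.3% is close to the 30.7% of all tested genes, with a median log2 difference of 0.06. With knockdown replicate 1 left out, 43 were higher and 3 lower, beside 42.7% of all. Their share of all counts was 6.31 ± 0.0969% in control and 6.63 ± 0.208% in knockdown libraries. The groups overlapped, since knockdown replicate 1 (6.36%) lay within the controls (6.17% to 6.40%). The difference between these families was not tested. Genes encoded by mitochondrial DNA were not analysed here.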

How the data were processed

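Total RNA of KYSE150 cells was prepared with TRIzol, made into libraries with the VAHTS Universal V6 kit and sequenced as 150 bp paired-end reads that were filtered with fastp, per the labels' protocols. The build is hg38, per the submitters' processing notes. Not given in the sources used here are the aligner, counting tool, strand setting and annotation. Raw counts by the authors were deposited for 15852 genes, and the deposited FPKM table holds the authors' counts scaled by gene length and library total: 110558 of 110558 FPKM values above 0 match that within a relative tolerance of 1e-06, so it is no independent measurement.

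Counts were TMM-normalized, filtered with filterByExpr (11841 genes kept) and compared with edgeR's robust quasi-likelihood test (edgeR 4.0.16, R 4.3.3), with Benjamini-Hochberg adjustment over all tested genes and a threshold of 0.05. SE is the log2 difference divided by the root of F. Genes were named where they passed the test, were among the 3 highest or 3 lowest in FPKM, were filtered out, lay next to the threshold or had a symbol that does not match their subunit; from each list, up to 4 with the smallest p were eligible. Limma 3.58.1 on log2(FPKM + 1) and log2(FPKM + 0.1), DESeq2 1.42.0, other scalings and filters, a replicate block and leaving out each library were the alternatives, and the GC correction, with and without knockdown replicate 1, was added after seeing the data. Samples were grouped by genotype label. The members and gene lists were chosen with earlier results of these data known. In simulated data of 11841 genes, 50 genes were given a change of each size tried. There, edgeR recovered 80% of 1.25-fold and 100% of 2-fold changes. Changes under 1.25-fold, where the estimates of all called members lie, were not simulated. The simulation also held no library that stood apart, so it does not give the recovery for these members. Shared sequence was counted in 75-base windows taken every 25 bases of GENCODE transcripts. No pair of libraries agreed within counting noise. Libraries of the same replicate number did not deviate together, so they were not paired.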

Additional observations from a re-analysis of the deposited data

Results flagged for a closer look

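The members' share of counts was 0.545% in control replicate 1 and 0.526% to 0.528% in the other 3 controls. Its gap to the next library, divided by the range of the group, was 0.878, above the critical value of 0.829 for 4 libraries. It was the 1 such case among 58 groups of library values examined, where chance alone gives about 1 in 20.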

How the results depend on the processing

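The counts of 3 large subunit genes higher, 5 large lower, 2 small higher and 5 small lower came out the same with size factors of another kind (RLE) and with DESeq2. Leaving out 1 library gave 0 to 7 large higher, 3 to 7 large lower, 0 to 4 small higher and 3 to 6 small lower. Of all tested genes, 23.9% to 42.7% were called in those fits. Limma on log2(FPKM + 1) without a filter on low values gave 3 members higher and 5 lower, beside 19.2% of all genes. Among these were 2 large lower, 1 small higher and 3 small lower. The GC-corrected fit gave 6 large higher, 9 large lower, 4 small higher and 8 small lower, beside 41.9% of all tested genes. With knockdown replicate 1 also left out, that fit gave 10 members higher and 16 lower, beside 42.2% of all tested genes. Among these were 6 large higher, 10 large lower and 4 small higher. The cause of these changes was not tested. Among genes that changed sign, MRPS28 ranged from -0.303 to 0.0156 over fits leaving out 1 library, with the high end without knockdown replicate 1, and stood at 0.0435 in the GC-corrected fit without that replicate. MRPL12 ranged from -0.0366, without knockdown replicate 4, to 0.102 and stood at -0.00174 without knockdown replicate 2. MRPL51 ranged from -0.00795, without knockdown replicate 2, to 0.0873 (log2 differences). The log2 difference of BOLA3 lay between -1.71 and -1.56 throughout.

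The replicate block, which pairs libraries of the same number, gave 2 large higher, 4 large lower, 1 small higher and 4 small lower, and MRPL20, MRPL38, MRPS16 and MRPS5 no longer passed, beside 28.6% of all genes called. Same-numbered libraries had correlations of deviations of 0.00501, 0.00017, 0.0876 and -0.0444 for numbers 1 to 4, so these share only a number. The median 95% interval of the members that did not pass reached 0.116 on the log2 scale to either side, so smaller differences were not resolved for a member of that precision.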
